A study of Mus musculus with 6 samples.

Results

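Described here are 8 genes used as markers of immature and nonmyelinating Schwann cells: Ngfr, Ncam1, L1cam, Gfap, Vim, Nes, Ptprz1 and Olig1. They were chosen by name, with earlier results of these data known. Every probe set that the platform annotation pairs with exactly 1 gene symbol equal to one of these names was read. These were 25 of 45101 probe sets, and the genes themselves are 8 of 18194 named genes. Of the 6 that could be tested, 3 changed, against 22% of all genes tested (12.6% higher and 9.38% lower). Ngfr and Ncam1 rose in nerves whose Schwann cells had lost Hdac1 and Hdac2, Nes fell, and L1cam, Vim and Ptprz1 did not pass the test. The call of Ncam1 was lost in 6 and that of Nes in 8 of 12 alternative analyses. Gfap and Olig1 lay under the low-value limit on every array, so that 6 of the 8 could be tested.

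Immature Schwann cells ensheathe whole bundles of axons and can take either of a pair of courses around birth. A cell that pairs with a single large axon switches on myelin genes and switches off adhesion molecules, receptors and filament proteins of the immature state, whereas a cell that keeps several small axons goes on expressing many of them as a nonmyelinating cell. The p75 neurotrophin receptor Ngfr, the adhesion molecules Ncam1 and L1cam, and the glial filament protein Gfap are the commonly used markers of the second course and also of Schwann cells that have lost their myelin after injury.

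Sciatic nerves were taken from mixed-strain mouse pups on postnatal day 2, and the perineurium, the outer sheath, was removed. The 3 double knockout (dKO) samples carried DhhCre, a Cre recombinase driven by desert hedgehog, which Schwann cells express, and lacked HDAC1 and HDAC2, the histone deacetylases encoded by Hdac1 and Hdac2, in Schwann cells. The 3 control samples were DhhCre–. The labels give for the controls no Hdac1 or Hdac2 alleles, and for no sample the number of nerves or pups in it, while the design text counts 3 mutants and 3 littermates. Each of the 6 RNA samples was measured on its own Affymetrix array (Mouse Genome 430 2.0), and values are log2 expression. All changes are dKO minus control on that scale, with their standard error (SE), from limma fitted over 14550 genes with Benjamini-Hochberg adjustment. Genes counted as changed had an adjusted p under 0.05. These p-values rest on the spread among the arrays of a group, which limma draws toward that typical of all genes tested. Having 3 arrays a group limits the precision.

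Hdac1 and Hdac2 were lower on all 3 dKO arrays (log2 change -1.55 and -1.26, limma adjusted p = 0.000271 and 0.00103). Of the 3 Hdac2 probe sets 2 were called lower and 1 changed by 0.13, and their average changed by -0.71 (limma adjusted p = 0.00431). Of 12 tested genes on a list of myelin genes, all 12 fell, with a median change of -3.07. The myelin genes Mag, Pllp, Ncmap and Cldn19 changed most (-4.63, -4.33, -4.25 and -4.06), and the mean over the list was 9.66 on dKO 1 against 8.33 and 8.63 on dKO 2 and dKO 3. Among 8 tested genes listed as Schwann cell lineage markers, 2 rose (Ets1 and Cdh6) and 3 fell (Egfl8, Erbb3 and S100b). Dhh, the gene whose promoter drives the Cre, was expressed on all 6 arrays (11.76 to 12.59). The RNA came from whole nerve, in which fewer cells of a type and less RNA per cell cannot be told apart.

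Ngfr, the neurotrophin receptor that gives Schwann cells their p75 staining, was the member with the largest change. Its log2 expression was 9.64, 9.41 and 9.63 in the 3 control nerves and 10.54, 10.82 and 10.32 in the 3 dKO nerves. Every dKO nerve was above every control nerve, as for 22.6% of all genes tested, with 0.68 between the highest control and the lowest dKO value. The log2 change was 1.0 (SE 0.17, limma adjusted p = 0.00419), a 2.01-fold higher mean, with a 95% confidence interval of 0.62 to 1.39. By size it ranked 924 from the top among the 14550 tested genes. Both other Ngfr probe sets were also higher in dKO, by 0.92 (SE 0.14) and 0.64 (SE 0.16), and all 3 passed the test over single probe sets, which 15.8% of probe sets passed. The call held in each of 12 alternative analyses, with an adjusted p of up to 0.0213.

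**Figure D1:**
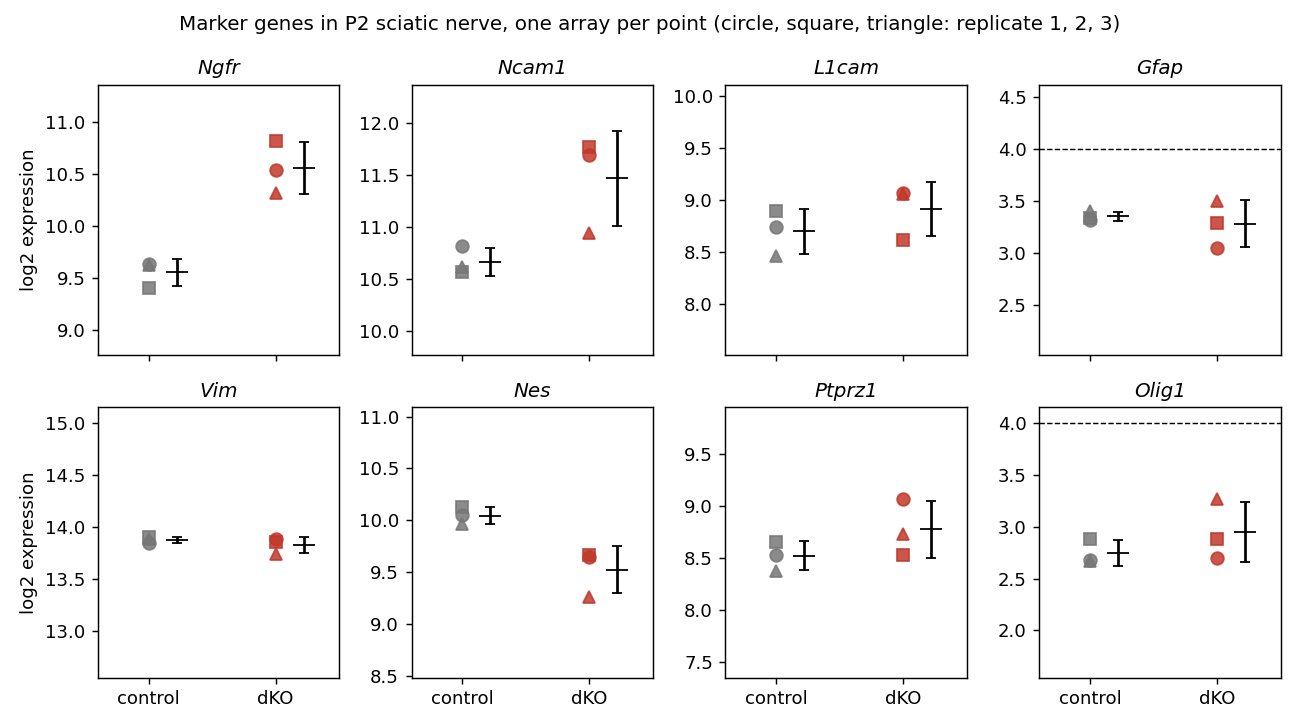
Log2 expression (y axis) of the 8 marker genes in control and dKO nerves (x axis), 1 point per array, with mean and SD of 3 arrays beside the points; each panel spans the same height. Ngfr and Ncam1 lie higher and Nes lower on all dKO arrays, L1cam, Vim and Ptprz1 overlap, and Gfap and Olig1 stay under the dashed limit of 4.

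The promoter sequences of Ngfr, of Nes, which moved the other way, and of Vim, whose level was nearly the same in both groups, show what lies around the starts of these 3 differently behaving genes. They are from RefSeq on GRCm38.p6, each from 250 bases before to 50 bases after the annotated start, 5′ to 3′ on the strand of the gene. Such a window was given for 6 of the 8 genes and not for Ncam1 or Olig1. Capitals mark the letters of a GC box, which are GGGCGG, of a TATA box, which are TATAAA, or of the CCAAT box, on either strand.
Ngfr, chr11:95587649-95587948, minus strand: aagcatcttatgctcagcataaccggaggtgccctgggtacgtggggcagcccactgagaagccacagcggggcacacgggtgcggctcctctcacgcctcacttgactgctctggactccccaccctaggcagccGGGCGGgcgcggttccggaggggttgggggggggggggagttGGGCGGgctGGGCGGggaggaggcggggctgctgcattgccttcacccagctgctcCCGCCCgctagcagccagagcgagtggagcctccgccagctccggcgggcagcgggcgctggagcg
Nes, chr3:87970843-87971142, plus strand: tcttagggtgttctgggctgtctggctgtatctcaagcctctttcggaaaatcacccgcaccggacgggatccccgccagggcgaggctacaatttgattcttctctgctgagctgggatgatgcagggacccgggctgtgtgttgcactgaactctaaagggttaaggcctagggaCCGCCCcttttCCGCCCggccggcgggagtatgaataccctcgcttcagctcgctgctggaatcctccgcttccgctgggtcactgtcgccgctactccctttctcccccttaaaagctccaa
Vim, chr2:13574061-13574360, plus strand: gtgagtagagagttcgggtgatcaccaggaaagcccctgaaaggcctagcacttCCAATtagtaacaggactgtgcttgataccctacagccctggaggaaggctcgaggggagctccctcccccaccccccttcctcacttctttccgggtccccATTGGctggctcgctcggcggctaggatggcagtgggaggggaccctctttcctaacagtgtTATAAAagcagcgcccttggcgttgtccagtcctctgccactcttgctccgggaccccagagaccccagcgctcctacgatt

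The Ngfr window held 4 GC boxes and neither of the other motifs, and 71.7% of its bases were G or C against a median of 52.7% over all promoter windows. The Nes window held 2 GC boxes. The Vim window held 1 TATA box and 2 CCAAT boxes and no GC box. Over 32851 promoter windows of the same length, 35.7% held a GC box, 13.6% a TATA box and 37.4% a CCAAT box. The letters of an AP-1 site (TGANTCA) and of a TEAD site (GGAATG) were in none of the windows of the 6 genes, against 7.81% and 14.7% of all windows, and those of a SOX core (ACAANG) were in the windows of Vim and L1cam only, against 41.2% of all. No marked match overlaps another in the 3 printed windows. These are matches of letters, and binding was not measured here.

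Other genes of neurotrophin signalling rose in part. Of 15 genes listed as neurotrophin ligands, their receptors and partners of p75, 10 were tested, 5 rose and 0 fell, with a median change of 0.35 against 0.01 over all genes tested. Sorcs2, a sortilin-family receptor that pairs with p75, went from 8.90, 9.05 and 8.88 in control to 9.93, 9.90 and 9.44 in dKO nerves (log2 change 0.81, SE 0.17, limma adjusted p = 0.0115). Ntrk2, the receptor of brain-derived neurotrophic factor, went from 7.69, 7.95 and 7.99 to 8.41, 8.72 and 8.88 (0.79, SE 0.17, limma adjusted p = 0.0126). The groups did not overlap for either gene. Of the 3 Ntrk2 probe sets above the limit, 2 passed, while the average over all 8 changed by 0.32 and did not pass (limma adjusted p = 0.0756). Kidins220, a scaffold of neurotrophin receptors, rose by 0.67 (1 of 4 probe sets called), and the average of the 4 changed by 0.31 and did not pass (limma adjusted p = 0.190). The p75-associated proteins Bex3 and Maged1 rose by 0.62 and 0.49, and without control 2 neither passed (adjusted p = 0.05001 and 0.0890). Maged1 also missed the threshold without each of the other arrays (adjusted p up to 0.143), and 3 genes of the list were called higher without control 2. Ntrk3, the receptor of neurotrophin-3, had a change of 0.04 (SE 0.32) on the probe set used for the gene. Its 8 probe sets changed by 0.04 to 0.85, with 1 called higher, and their average changed by 0.44 and did not pass (limma adjusted p = 0.109). Bdnf was under the limit on all control arrays and at 4.003, 4.06 and 3.88 on the dKO arrays, and Ntf5 was under it on every array.

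Ncam1, which encodes the neural cell adhesion molecule, rose, with more spread among dKO nerves than Ngfr. Its log2 expression was 10.81, 10.56 and 10.61 in control and 11.69, 11.77 and 10.94 in dKO nerves. The groups did not overlap, although dKO 3 lay only 0.13 above the highest control, whereas dKO 1 and dKO 2 were 1.03 and 1.11 above the control mean. The log2 change was 0.81 (SE 0.23, limma adjusted p = 0.0379, 95% confidence interval 0.28 to 1.33), 1.75-fold. Leaving out any single array except dKO 3 took the adjusted p to between 0.0627 and 0.121. With each array centred on its median it was 0.0717, and without dKO 3 the change was 1.07 (limma adjusted p = 0.00401).

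The 7 Ncam1 probe sets had changes from 0.01 to 1.32. In the fit over single probe sets 2 of them passed. One of these, whose mean level is next to that of the probe set used for the gene, was at 10.20, 10.36 and 10.32 in control and 11.53, 11.52 and 11.26 in dKO nerves (log2 change 1.14, SE 0.15, limma adjusted p = 0.00223). All 3 dKO nerves stood apart there, dKO 3 included. The other was at 6.16, 6.74 and 7.46 in control and 8.55, 8.15 and 7.62 in dKO nerves (1.32, SE 0.35, limma adjusted p = 0.0394). The probe set used for the gene missed the threshold in that fit (limma adjusted p = 0.0530). The dimmest probe set changed by 0.01 (SE 0.15), with values of 6.24 to 6.63 on all 6 arrays. Which Ncam1 transcripts each probe set detects was not analysed here.

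**Figure D2:**
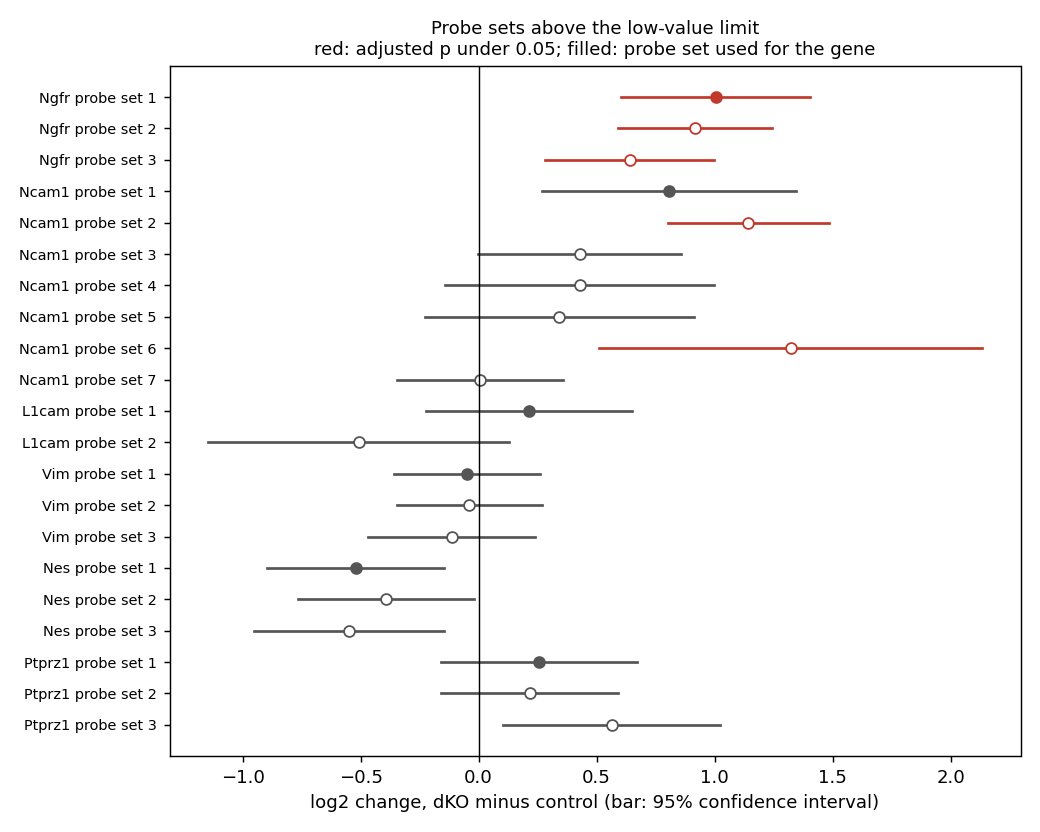
Log2 change, dKO minus control (x axis), of the 21 probe sets of the marker genes that were above the low-value limit (y axis, from highest to lowest mean level within a gene), with 95% confidence intervals. Red marks the 5 that passed over all probe sets, and filled points the one used for the gene. The 3 Ngfr probe sets lie at 0.64, 0.92 and 1.0, those of Ncam1 spread from 0.01 to 1.32, and all 3 of Nes lie below 0 without passing.

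L1cam, the adhesion molecule by which Schwann cells bind small axons, did not pass. Its log2 expression was 8.74, 8.89 and 8.46 in control and 9.06, 8.61 and 9.06 in dKO nerves. The value of dKO 2 lay within the control range, and the change was 0.21 (SE 0.18, limma adjusted p = 0.456, 95% confidence interval -0.21 to 0.64). Its second probe set, at 7.85, 7.32 and 7.25 in control and 7.19, 7.32 and 6.39 in dKO nerves, pointed the other way (-0.51, SE 0.28, limma adjusted p = 0.265), and the average of both changed by -0.15.

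Relatives of Ncam1 and L1cam moved in both directions. Of 14 genes of these families, their binding partners and the enzymes that modify NCAM, all tested, 4 rose and 3 fell, with a median change of -0.27 (-0.01 without dKO 3). St8sia2, which adds polysialic acid to NCAM, had the largest rise of the list, from 6.04, 5.97 and 6.10 in control to 8.003, 8.17 and 8.45 in dKO nerves (log2 change 2.17, SE 0.16, limma adjusted p = 0.000154). Both its probe sets passed. The second polysialyltransferase gene, St8sia4, rose by 0.81 (SE 0.23, limma adjusted p = 0.0416), which missed the threshold without any single array other than control 2 (adjusted p up to 0.110).

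Among the L1 family itself, Chl1, the close homolog of L1, went from 11.31, 11.21 and 11.24 to 12.35, 12.23 and 12.18 (1.0, SE 0.13, limma adjusted p = 0.00135). Of the 3 Chl1 probe sets above the limit 2 passed and 1 changed by -0.60, and the average over 4 changed by 0.38 and did not pass (limma adjusted p = 0.331). Nfasc, the neurofascin gene of nodes and paranodes, fell from 9.63, 9.87 and 8.70 to 7.20, 5.72 and 6.57 (-2.90, SE 0.41, limma adjusted p = 0.00188), and Nrcam, another member of nodal complexes, fell by 1.76 (SE 0.18). All 3 Nfasc and all 4 Nrcam probe sets passed. Alcam, an immunoglobulin-family adhesion molecule, was higher by 0.88 on the gene's probe set, with 5 of 5 probe sets called, and missed the threshold when control 1, dKO 1 or dKO 2 was left out (adjusted p up to 0.0729). Ank2, which encodes an ankyrin, fell by 0.54 with 0 of 6 probe sets called in the fit over probe sets, and it missed the threshold without any single array other than dKO 2 (adjusted p up to 0.144) and with probe sets averaged (-0.10). Ncam2 had a change of -0.33 (SE 0.23). Without control 1, dKO 1 or dKO 2, 2 genes of this list were called higher.

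None of the 3 filament protein genes among the markers was called higher. Vim, which encodes vimentin, the main intermediate filament of immature Schwann cells and of fibroblasts and endothelium, was at 13.84, 13.90 and 13.88 in control and 13.88, 13.85 and 13.74 in dKO nerves. The values overlapped and the change was -0.05 (SE 0.13, limma adjusted p = 0.816), with a 95% confidence interval of -0.34 to 0.24. All 3 Vim probe sets had changes between -0.11 and -0.04. Its control level lies 1.07 under the highest value on these arrays, 14.94, and whether the probes respond in full there was not tested.

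Nes, which encodes nestin, the filament protein of neural progenitors and immature Schwann cells, was at 10.05, 10.13 and 9.96 in control and 9.65, 9.66 and 9.27 in dKO nerves. Every dKO nerve was below every control nerve, as for 18.4% of all genes tested, by 0.30 at the nearest values, and dKO 3 was the lowest. The log2 change was -0.52 (SE 0.16, limma adjusted p = 0.0479, 95% confidence interval -0.88 to -0.16), which left 69.7% of the control mean. Both other Nes probe sets pointed the same way without overlap (-0.55 and -0.39), but 0 of the 3 passed over single probe sets (limma adjusted p = 0.0681, 0.0719 and 0.148). Leaving out any single array of the 6 took the adjusted p to between 0.0744 and 0.141.

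Gfap, the glial fibrillary acidic protein gene, was under the limit in every nerve. Its brightest probe set was at 3.31, 3.34 and 3.40 in control and 3.05, 3.29 and 3.50 in dKO nerves, and the highest value on any array and any of its 3 probe sets was 3.53. All lie under the limit of 4, and no fold is given. Of 16 listed genes for other intermediate filament proteins and their linkers, 15 were tested and 0 passed in limma (2 had an unadjusted p under 0.05, Dst and the neurofilament gene Nefl), with a median change of 0.17 (0.05 without control 3 and 0.07 without control 2 or dKO 3). With probe sets averaged 2 were called lower, Lmna (-0.42) and Dst (-0.47), and without control 2 the peripherin gene Prph was called higher (0.81).

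Ptprz1, a receptor tyrosine phosphatase that is cut or spliced to the matrix proteoglycan phosphacan, was at 8.53, 8.66 and 8.38 in control and 9.07, 8.53 and 8.73 in dKO nerves. The value of dKO 2 fell within the control range, and the change was 0.25 (SE 0.17, limma adjusted p = 0.346, 95% confidence interval -0.15 to 0.66). Its dimmest probe set did not overlap between the groups, at 6.71, 7.44 and 7.12 in control and 7.73, 7.62 and 7.62 in dKO nerves, and did not pass either (0.56, SE 0.20, limma adjusted p = 0.0991).

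Genes that act with Ptprz1 rose in part. Of 9 listed ligands, relatives and partners, 7 were tested, 4 rose and 0 fell, with a median of 0.67. Tnc, which encodes the matrix ligand tenascin-C, went from 10.85, 10.61 and 10.29 to 12.65, 12.75 and 12.29 (log2 change 1.98, SE 0.19, limma adjusted p = 0.000437). Mdk, which encodes the ligand midkine, went from 10.14, 10.30 and 10.50 to 11.78, 12.05 and 12.06 (1.65, SE 0.16, limma adjusted p = 0.000386). Each dKO value of both genes was more than 1 log2 unit above each control value. The related ligand gene Ptn, pleiotrophin, had a change of -0.07 (SE 0.25). Sdc3, a syndecan, rose by 0.78 (1 of 3 probe sets called), and the average of the 3 changed by 0.28 and did not pass (limma adjusted p = 0.381). Ptprg, the paralog of Ptprz1, rose by 0.67 (limma adjusted p = 0.0441). Without dKO 1 neither Sdc3 nor Ptprg passed (adjusted p = 0.0542 and 0.109), which left 2 genes called. Ptprg also missed the threshold without control 1, control 2 or dKO 2 (adjusted p up to 0.139) and with each array centred on its median (0.0852). With probe sets averaged the median of the list was 0.28.

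Olig1, a basic helix-loop-helix factor of the oligodendrocyte lineage, was under the limit in all 6 nerves, at 2.68, 2.88 and 2.67 in control and 2.70, 2.88 and 3.27 in dKO. Its relatives Olig2 and Olig3 were also under the limit on every array. Of 14 listed relatives, helix-loop-helix partners and repressors of the Id and Hes families, 10 were tested, 2 rose and 0 fell in limma (5 had an unadjusted p under 0.05). The median was 0.23, against 0.02 without a filter on low values and 0.07 with probe sets averaged. Tcf4, which encodes the E protein TCF4, rose by 0.82 (SE 0.16, limma adjusted p = 0.00908) on 5 of 5 probe sets above the limit. Id4, an inhibitor of helix-loop-helix factors, rose by 0.54 (SE 0.13, limma adjusted p = 0.0204), and missed the threshold when control 1, control 3, dKO 1 or dKO 2 was left out (adjusted p up to 0.0678). Id2, another gene of the Id family, was at 10.74, 10.92 and 10.20 in control and 9.64, 9.43 and 10.30 in dKO nerves, where dKO 3 lay within the control range (-0.83, SE 0.27, limma adjusted p = 0.0600). It passed as lower in 5 of the 12 alternatives, namely without control 3 (adjusted p = 0.0332), without dKO 3 (0.0203), with probe sets averaged (0.0319), with arrays centred on their median (0.0281) and with an intensity trend (0.0416), which also called Zeb2 lower (-0.42).

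Further genes of immature, nonmyelinating or repair Schwann cells stood beside the 8. Of 17 listed, 16 were tested, 8 rose and 2 fell, with a median of 0.50 (1.04 with probe sets averaged). Gdnf, 1 of the 8, was at 3.397, 3.47 and 3.193 in control and 4.415, 5.048 and 5.151 in dKO nerves. It reached the limit of 4 only on dKO arrays, so it could enter the test only as a rise. Cdh2, the N-cadherin of contacts between immature Schwann cells and axons, went from 9.58, 9.01 and 9.02 to 11.07, 11.10 and 10.86 (log2 change 1.81, SE 0.19, limma adjusted p = 0.000548). Tfap2a, a factor of Schwann cell precursors, rose from 4.01, 4.46 and 4.09 to 5.31, 5.94 and 5.28 (1.32, SE 0.22, limma adjusted p = 0.00387), and its 3 probe sets rose by 1.32 to 3.998. Gap43, Hey2 and Fabp7 had the largest changes (3.05, 3.26 and 1.95), where Hey2 was under the limit on 2 control arrays and 7.43-fold higher with those set to it. Like Gdnf, Hey2 met the rule of 3 arrays at the limit only through its dKO arrays. The genes that fell were Hey1 (-1.04) and Scn7a, a sodium channel gene of nonmyelinating Schwann cells, which went from 10.23, 9.99 and 9.80 to 8.97, 8.94 and 9.22 (-0.96, SE 0.16, limma adjusted p = 0.00447) on 3 of 3 probe sets.

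**Figure D3:**
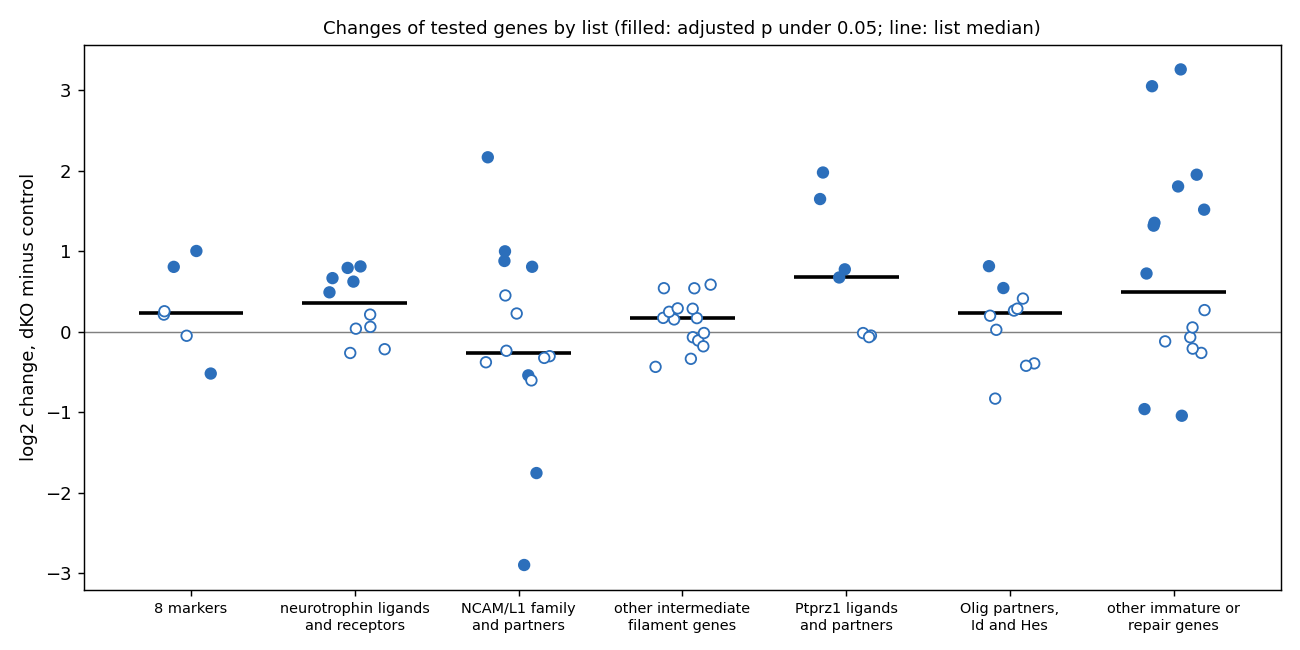
Log2 change, dKO minus control (y axis), of each tested gene of the 8 markers and of 6 lists of related genes (x axis), with list medians as lines and genes past the adjusted p of 0.05 filled. The medians run from -0.27 for the NCAM and L1 family to 0.67 for Ptprz1 ligands and partners, and 0 of 15 filament genes passed.

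Set against all genes, the tested members had 3 of 6 called, where 22% of all tested genes were called, and 3 of 6 with groups that did not overlap, where 40.9% of all did. Numbers this small do not set the 8 apart from other genes, and the 8 were chosen with earlier results of these data known. On the 6 lists of related genes together, 28 of 72 tested genes were called (38.9%), 23 higher and 5 lower. The 23 include Gdnf, which reached the low-value limit only on dKO arrays, and Hey2, which met the rule of 3 arrays only through them. The lists were chosen with earlier results of these data known, so this share cannot show that related genes changed more often than others. Among dKO nerves the size of the change differed. dKO 3 had the smallest rise of Ngfr (0.76 above the control mean) and of Ncam1 (0.28) and the largest fall of Nes (-0.78). The array dKO 2, with the lowest mean of the myelin list (8.33), had the largest rises on the probe sets used for the genes (1.26 in Ngfr and 1.11 in Ncam1). The array dKO 1, with the highest (9.66), had rises of 0.98 and 1.03. On both Ncam1 probe sets that passed singly, dKO 1 was above dKO 2 (11.53 and 8.55 against 11.52 and 8.15). The myelin mean of dKO 3 (8.63) lay between those of dKO 1 and dKO 2. Whether the rises go with the myelin means was not tested, and 3 dKO arrays cannot show it.

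The genes whose profiles over the 6 arrays were nearest to those of the members, by the root mean square difference of mean-centred log2 values over the 14550 tested genes, were the following. For Ngfr they were Gpc1, a heparan sulfate proteoglycan (0.06), Ubash3b (0.09) and Farp1 (0.09), all called higher with changes of 1.09, 1.10 and 0.89. For Ncam1 they were Slitrk2, a neuronal adhesion protein (0.05), Arrb1, which encodes beta-arrestin 1 (0.07), and Lrrfip1 (0.08), with changes of 0.81, 0.71 and 0.87 and, like Ncam1, their smallest dKO value on dKO 3. For Nes they were Tcim (0.04), Rnf6 (0.05) and Golga3 (0.05), of which only Tcim was called lower (-0.53, limma adjusted p = 0.0443), a call that was lost without each of the 6 arrays in turn and with a replicate block (adjusted p up to 0.134). For L1cam they were Egln1, Bend3 and Sec16a, for Ptprz1 Herc2, Wdfy3 and Itgav, and for Vim Tnfrsf9, Col1a2 and Ik, and 0 of these 9 were called.

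Several of the 8 genes are also expressed outside Schwann cells, for example Vim in fibroblasts, endothelium and macrophages and Nes in endothelium and pericytes. Markers of these and of other cell types were higher in places. Of 10 nerve fibroblast markers 5 rose (Dpt, Fbln1, Dcn, Pdgfra and Lum), and the mean of the list was 9.04 to 9.54 in control and 10.09 to 10.22 in dKO nerves. Without control 2 or dKO 2, 3 of them were called. Dpt was under the low-value limit on 2 control arrays and entered the test only through its dKO arrays. Of 10 pericyte and smooth muscle markers 4 rose (Anpep, Notch3, Kcnj8 and Rgs5), with list means of 7.38 to 7.50 and 7.91 to 8.23. Rgs5 (0.64, limma adjusted p = 0.0465) passed in only 3 of the 12 alternatives, and was lost without each of the 6 arrays in turn (adjusted p up to 0.118). Of 10 endothelial markers 0 passed in limma (4 had an unadjusted p under 0.05), and the list means were 6.53 to 7.05 and 7.05 to 7.47. In the alternatives, 2 endothelial markers were called higher with a replicate block, 1 with probe sets averaged and 1 without dKO 1. Of 9 tested macrophage markers 2 rose (Aif1 and C1qa), with list means of 6.53 to 6.77 and 6.98 to 7.76, the highest on dKO 3, and 1 was called without control 2, control 3 or dKO 2. Of 8 tested perineurial markers 2 rose (Cldn1 and Itga5), a count of 0 without control 2 or dKO 2, and of 10 neuron and axon markers 2 rose (Snap25 and Uchl1). The brightest markers of these lists mostly missed the test. The fibroblast collagen genes Col1a2 and Col3a1 changed by -0.03 and 0.11, the pericyte receptor gene Pdgfrb by 0.22 and the neuronal tubulin gene Tubb3 by -0.05. The endothelial genes Cdh5 and Tek changed by 0.49 and 1.12, the macrophage receptor gene Csf1r by 0.76, the perineurial markers Tjp1 and Slc2a1 by -0.31 and 0.46, and the axonal Nefl by 0.54 (adjusted p of 0.103 to 0.903 over these 10 genes). With probe sets averaged, Cdh5 was called higher (0.82, limma adjusted p = 0.00998). The part of these cells in the values of the 8 genes, Ngfr and Ncam1 included, was not tested. Of 7 tested skeletal muscle markers Mylpf rose (0.62), a call lost without any array but dKO 1, and Tnnc2 changed by 0.19. Of central glia markers, Aqp4, Olig2 and Mog were under the limit on every array, and of the 5 tested Slc1a3 rose and Cnp and Mobp fell, with 0 to 1 higher and 1 to 2 lower when an array was left out. Cnp is also on the myelin list, where its fall was already counted. The arrays correlated at 0.980 to 0.991 within the groups and at 0.925 to 0.963 between them.

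**Figure D4:**
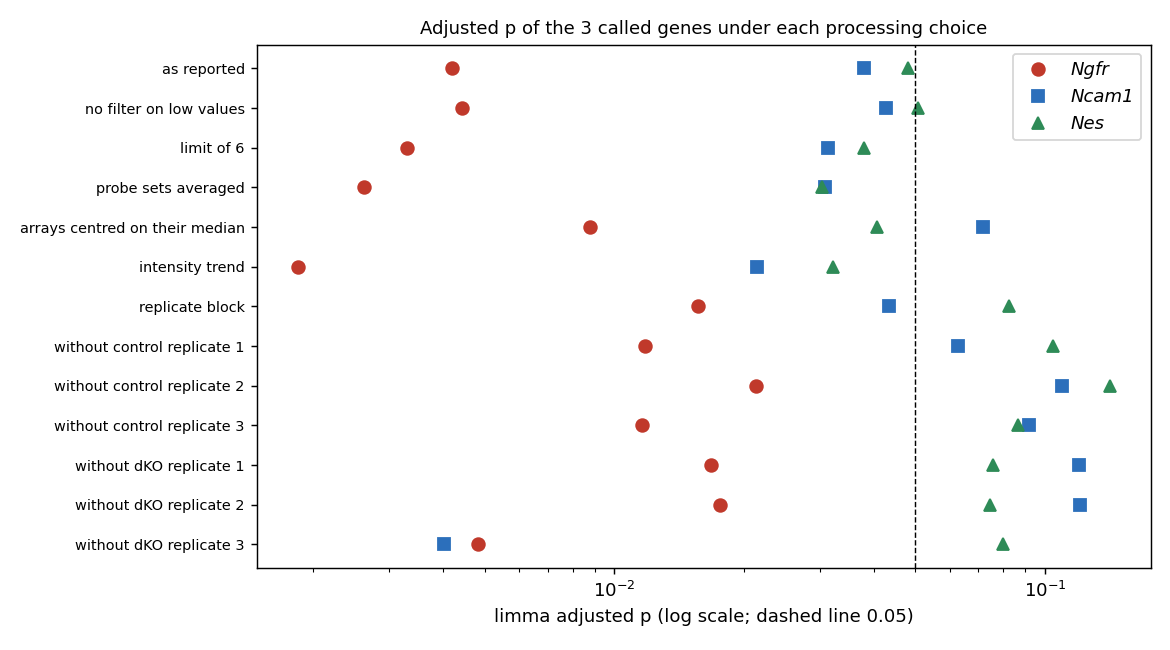
Limma adjusted p on a log scale (x axis) of Ngfr, Ncam1 and Nes under the reported analysis and 12 alternatives (y axis), with a dashed line at 0.05. Ngfr stays between 0.00184 and 0.0213, whereas Ncam1 crosses the line in 6 and Nes in 8 of the 12.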

How the data were processed

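The authors deposited log2 expression values per probe set, with a median of 5.77 on each of the 6 arrays and sorted values that differ by at most 0.01 at any rank. Per the submitters' processing notes, GCOS 1.2 and GCRMA were used. Their settings are not given in the sources used here, and the scale was inferred from the range of the values. Equal distributions hide a shift common to all genes. Groups came from the sample titles.

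Of 45101 probe sets, 34958 had 1 gene symbol, 932 several and 9211 none. Symbols were updated through gene IDs with RefSeq (GRCm38.p6). A gene's value is its probe set with the highest mean over the 6 arrays. Genes at 4 or more on at least 3 arrays were tested with limma 3.58.1 (lmFit, eBayes) in R 4.3.3, without covariates. Probe sets were fitted separately in the same way. All p-values of genes are two-sided. The fit was also tested on simulated data.

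The members and lists were chosen with earlier results of these data known. All members are named, with up to 4 called genes of each list by size and the 2 brightest of each marker list of other cells. Maged1, Id2, Zeb2, Alcam, Ank2, St8sia4, Tfap2a, Scn7a, Hey1, Ptn, Ncam2, Ntrk3, Prph, Lmna, Dst, Nefl, Bdnf, Gdnf, Dhh and the called markers of other cells were named after their values were seen. The same holds for Cdh6, Ntf5, Olig2, Olig3, Aqp4 and Mog. List genes that were not named or not tested are not analysed here. Alternatives were another low-value limit or none, averaged probe sets, arrays centred on their median, an intensity trend, a replicate block and each array left out.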

Additional observations from a re-analysis of the deposited data

How the results depend on the processing

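Ngfr was called in all 12 alternatives, with changes of 0.85 to 1.12. The Ncam1 change was 0.73 and not called with arrays centred on their median, which moved the dKO mean by 0.08 against control, and 0.66 to 1.07 with 1 array left out. The Nes change stayed at -0.52 without a filter on low values and with a replicate block, but was not called (limma adjusted p = 0.0506 and 0.0823), and ran from -0.59 to -0.39 with 1 array left out. L1cam changed by -0.15 with probe sets averaged, against 0.21. The number of members called was 1 to 2 with 1 array left out. Without a filter on low values, Gfap and Olig1 did not pass (limma adjusted p = 0.801 and 0.486). Over all genes, 3198 were called, 2178 to 2916 with 1 array left out, and of those lower 1365 and 891 to 1331. Of the genes called, 1833 were higher and 1365 lower, against 1603 and 1640 with arrays centred on their median. Ptprz1 and Vim were not called in any of the 12. The causes were not tested. The deviations of same-numbered arrays from their group means correlated at 0.04, -0.12 and -0.23 over genes. Those of differently numbered arrays correlated at -0.16 to 0.22. With 3 arrays a group, these values cannot show whether replicate numbers pair the samples. With a replicate block 2557 genes were called, Ngfr and Ncam1 among them.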
